A study of Mus musculus with 4 samples.

Results

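The promoters of splicing factor and hnRNP genes were examined for E2F1 occupancy in mouse embryonic stem cells (ESCs). The genes were chosen by symbol, as the protein-coding genes whose name starts with Srsf, Hnrnp, Snrp (without Snrpn), Sf3a, Sf3b, Prpf, U2af or Rbm followed by a digit. A promoter peak was any E2F1 peak that overlapped the window from 1000 bp upstream to 500 bp downstream of a transcript start (GENCODE M1 annotation, mm9). Of the 98 genes, 36 had such a peak, and they held 37 of all 4523 peaks, since Hnrnpu had a pair of them. The other 3952 promoter peaks served for comparison. Symbols do not make every gene a splicing factor, and the Rbm group in particular holds RNA-binding proteins with other roles.

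E2F1 was measured by ChIP-seq, which sequences the DNA that an antibody pulls down from fixed, sheared chromatin, in serum ESCs and in 2i ESCs, with 2 biological replicates each. Serum ESCs were kept in medium with fetal calf serum and LIF, and 2i ESCs in serum-free Ndiff 227 medium with CHIR99021 (Chiron, a GSK3 inhibitor), PD0325901 (PD, which blocks ERK signaling) and LIF. Both had been held in their medium for over 20 days, and the labels do not name the ESC line behind these libraries. The comparison addresses whether E2F1 occupies DNA differently in the 2 culture conditions. The libraries held 248878 reads in peaks in serum replicate 1 and 450420 in serum replicate 2, and 710519 in 2i replicate 1 and 395738 in 2i replicate 2. Values are normalized counts, the reads in a peak divided by one scaling factor per library, so that 1 read was worth 1.74, 0.953, 0.560 and 1.04 in the same order. The 37 peaks took between 1.28% and 1.67% of the reads in peaks of each library. The identity of the cells could not be checked against marker genes, since no RNA was analysed here.

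E2F1 binds promoters of genes for cell-cycle entry and DNA replication, and RB family proteins bound to it hold such genes down in G1-phase. Splicing removes introns from nascent RNA. SR proteins (Srsf) bind exons and help recruit the machinery, hnRNP proteins coat nascent RNA and often oppose them, the U2AF subunits read the end of the intron, the SF3A and SF3B subunits of U2 snRNP hold the branch point, Sm proteins (several Snrp genes) form the ring around spliceosomal RNAs, and Prpf proteins act at several steps of spliceosome assembly. Many of these genes, though not all, are transcribed in nearly every cell type, mostly from CpG-rich promoters.

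Sequences from the mm9 reference genome (NCBIM37) show what these promoters carry. Each of the following covers the 100 bases immediately upstream of the start, on the strand of the gene, outside annotated exons, with CCAAT (or ATTGG) and the GC box GGGCGG (or CCGCCC) in capitals. Srsf6, Hnrnpa0, Srsf2, Hnrnpab, Hnrnpu and Rbm15b are shown because they held strong peaks. U2af1 is shown because it is described further on, and Sf3b1 and Sf3a3 because no SF3 gene had a peak. The SF3 promoters of Sf3b2 and Sf3b5, not shown, each carried 1 CCAAT and 0 GC boxes.
Srsf6, chr2:162757164-162757263 (+): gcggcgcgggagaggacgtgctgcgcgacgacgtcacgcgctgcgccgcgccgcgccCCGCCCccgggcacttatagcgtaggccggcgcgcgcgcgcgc
Hnrnpa0, chr13:58229918-58230017 (-): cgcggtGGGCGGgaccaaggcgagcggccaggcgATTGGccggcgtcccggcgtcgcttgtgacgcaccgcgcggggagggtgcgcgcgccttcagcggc
Srsf2, chr11:116714409-116714508 (-): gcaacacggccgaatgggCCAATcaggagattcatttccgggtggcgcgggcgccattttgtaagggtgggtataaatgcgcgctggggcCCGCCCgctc
Hnrnpab, chr11:51420350-51420449 (-): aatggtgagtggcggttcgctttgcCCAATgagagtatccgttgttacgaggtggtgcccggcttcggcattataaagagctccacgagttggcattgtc
Hnrnpu, chr1:180267929-180268028 (-): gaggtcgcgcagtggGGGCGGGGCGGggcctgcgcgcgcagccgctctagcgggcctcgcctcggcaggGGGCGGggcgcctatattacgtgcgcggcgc
Rbm15b, chr9:106789332-106789431 (-): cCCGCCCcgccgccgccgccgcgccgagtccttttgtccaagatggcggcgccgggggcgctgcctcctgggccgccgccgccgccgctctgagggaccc
U2af1, chr17:31795700-31795799 (-): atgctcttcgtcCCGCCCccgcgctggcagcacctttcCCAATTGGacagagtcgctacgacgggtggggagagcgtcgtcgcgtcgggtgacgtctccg
Sf3b1, chr1:55084323-55084422 (-): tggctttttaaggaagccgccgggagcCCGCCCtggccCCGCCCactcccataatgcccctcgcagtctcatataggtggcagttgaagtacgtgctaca
Sf3a3, chr4:124391920-124392019 (+): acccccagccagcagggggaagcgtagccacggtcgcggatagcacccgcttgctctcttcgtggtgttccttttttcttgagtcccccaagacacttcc

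GC boxes and CCAAT were not distributed alike over these upstream windows. Windows at the start used a single start per gene, that of most transcripts, while a peak counted at any start of the gene. At Srsf11, Rbm17 and Hnrnph1, among others, the peak lay over another start. On both strands, the GC box stood in the upstream 100 bases of 22 of the 36 promoters with a peak (61.1%) and in 14 of the 62 without one (22.6%). Among all other protein-coding genes it stood in 56.9% of the promoters with a peak and 25.1% of those without, and in 31.1% of all promoters. CCAAT was present in 16 of the 36 splicing gene promoters with a peak (44.4%, 95% exact binomial interval over promoters 27.9% to 61.9%), against 17.1% of other promoters with a peak and 19.8% of all promoters. It was also present in 32.3% of the splicing gene promoters without a peak. The picture for CCAAT depended on the window. Within 200 bp of the start it was present in 58.3% of the splicing gene promoters with a peak and 53.2% of those without, against 32.4% and 44.3% of other promoters. Within 200 bp of the peak centre it was present at 21.6% of the splicing gene peaks and 19.3% of the other promoter peaks. The 100-base window was chosen after the values were seen. These shares are descriptions, and a match to the letters is not a bound site.

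The classical E2F motif was searched as TTTCCCGC, TTTCGCGC, TTTGCCGC or TTTGGCGC on both strands within 200 bp of each peak centre. It was found at 2 of the 37 splicing gene peaks (5.41%, interval 0.661% to 18.2%), at 4.98% of other promoter peaks and, within 200 bp of the start, in 3.65% of all promoters. Dropping the first T raised the share to 27.0% of the splicing gene peaks and 29.7% of the other promoter peaks. The GC box was within 200 bp of the centre of 94.6% and 93.9% of them. Both shares of the E2F motif were therefore close to those of other promoter peaks. Anywhere in the peak, the full motif was found at 3 of the 37 splicing gene peaks (8.11%) and at 6.63% of the other promoter peaks. It is shown in capitals for Hnrnpr, within 200 bp of the peak centre, and for Rbm15b, farther from it. Each stretch covers 60 bases on the strand of the gene, outside annotated exons. The other peak with a motif within 200 bp of the centre, at Snrpd1, is not shown.
Hnrnpr, chr4:135867270-135867329 (+): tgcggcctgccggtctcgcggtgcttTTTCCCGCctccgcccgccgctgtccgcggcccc
Rbm15b, chr9:106789574-106789633 (-): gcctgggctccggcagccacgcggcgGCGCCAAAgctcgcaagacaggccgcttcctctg

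E2F1 promoter peaks were frequent at SR and hnRNP genes and were not found at SF3 genes. Over all 98 genes the share with a promoter peak was 36.7%, against 18.9% of the 22140 other protein-coding genes. A peak was present at 9 of 11 SR genes (81.8%, exact binomial interval over genes 48.2% to 97.7%), all but Srsf1 and Srsf12, and at 10 of 18 hnRNP genes (55.6%, 30.8% to 78.5%). Neither Hnrnpa1 nor Hnrnpa2b1, which encode abundant hnRNP core proteins, had one. Of the U2AF genes, U2af1 and U2af2 had a peak and U2af1l4 did not. The remaining groups had smaller shares, with 4 of 13 Prpf genes (30.8%), 9 of 34 Rbm genes (26.5%) and 2 of 11 Snrp genes (18.2%, Snrpd1 and Snrpf). None of the 8 SF3A and SF3B genes had a promoter peak, for which the exact interval reaches 36.9%. Also without one were Snrpa and Snrpb, which encode a U1 snRNP protein and a Sm protein, Sf3a1 and Sf3b1, Prpf8 and Prpf19, and Rbm8a, Rbm10 and Rbm25. The list keeps peaks found in both replicates of a condition, so a gene without a peak may still bind E2F1 below that limit.

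Among genes with CpG-rich promoters the shares lay closer together. Such a promoter, with a GC content over 50% and an observed to expected CpG ratio over 0.6 within 200 bp of the start, was carried by 88 of the 98 splicing genes (89.8%) and by 47.6% of the other genes. Among genes with a CpG-rich promoter, 34 of the 88 splicing genes had a peak (38.6%), against 34.9% of the other genes. The groups still differed among themselves, with a peak at 9 of the 10 CpG-rich SR promoters (90.0%), at 55.6% of the 18 hnRNP promoters, all of which were CpG-rich, and at none of the 8 SF3 promoters, also all CpG-rich. This background was chosen after the values were seen, and CpG content was taken at the same single start per gene.

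**Figure D1:**
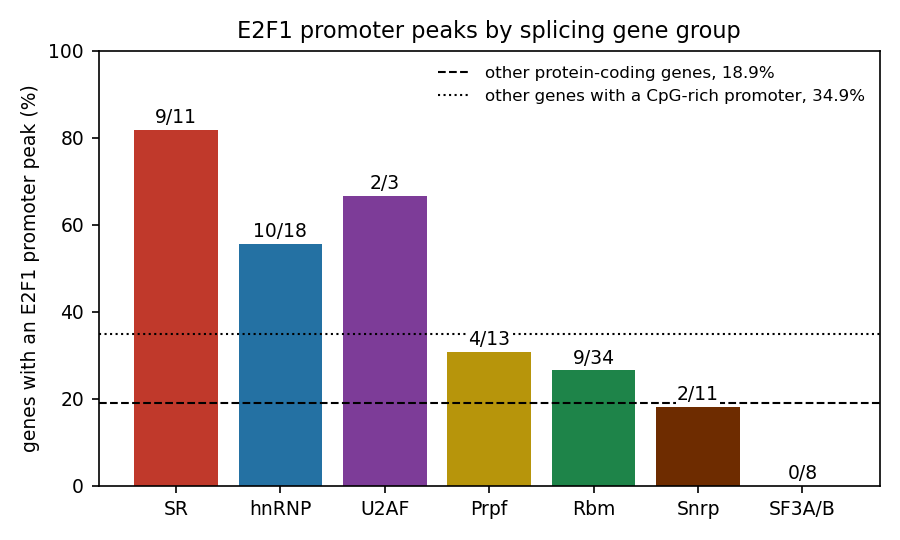
Share of genes with an E2F1 promoter peak in each splicing gene group, in percent, with the number of genes above each bar. The dashed line marks other protein-coding genes (18.9%) and the dotted line other genes with a CpG-rich promoter (34.9%), and the SR, hnRNP and U2AF bars (the last with 2 of 3 genes) stand above both lines while no SF3 gene had a peak.

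The peaks lay where promoter peaks usually lie. The start was inside the peak at 31 of 37 (83.8%), against 85.6% of other promoter peaks, and the median distance from peak centre to the nearest start was 122 bp, against 92 bp. At 7 of the 37 (18.9%) the window was shared with a gene outside the chosen symbols, against 9.26% of other promoter peaks at which at least 2 genes met. These were Srsf2 with Mfsd11, Srsf7 with Ttc39d, Hnrnpk with Rmi1, Hnrnpd with 4930524J08Rik, Hnrnpf with 4933440N22Rik, Rbm12 with Cpne1 and Prpf6 with Znf512b. The peak at Prpf6 was centred 763 bp downstream of the nearest Prpf6 start, in an intron. At such shared windows the signal cannot be assigned to one gene. A further 3 peaks lay in the bodies of Hnrnpa0, Hnrnpf and Prpf6 outside the promoter windows of these genes and were not counted with the 37. The one in Prpf6 lay in the promoter window of another gene and stood among the other promoter peaks.

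E2F1 signal at the 37 peaks had a higher median than at the other promoter peaks, over a wide range. The median over peaks of the mean normalized count was 92.7, against 65.0 at the other promoter peaks. Per kb of peak length the medians were 176 and 128, with median lengths of 502 and 486 bp. The median was higher than that of the other promoter peaks in each library, at 99.3 against 62.7 in serum replicate 1, 93.4 against 63.9 in serum replicate 2, 105 against 66.1 in 2i replicate 1 and 81.4 against 63.1 in 2i replicate 2. Of the 37, 8 (21.6%) were among the strongest 5% of all peaks, against 5.11% of the other promoter peaks, and 5 were among the strongest 100. The 8 were at Srsf6 (rank 9 of all peaks), Hnrnpa0 (32), Srsf2 (34), Hnrnpab (43), Hnrnpu (81), Hnrnpa3 (144), Rbm15b (149) and Hnrnpk (153). By group, the median was 235 for the 11 hnRNP peaks, 106 for the 9 SR peaks, 80.7 for the 9 Rbm peaks and 43.7 for the 4 Prpf peaks. The weakest peak, at U2af2 (rank 4449), held 17.8 and the strongest, at Srsf6, 771.

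**Figure D2:**
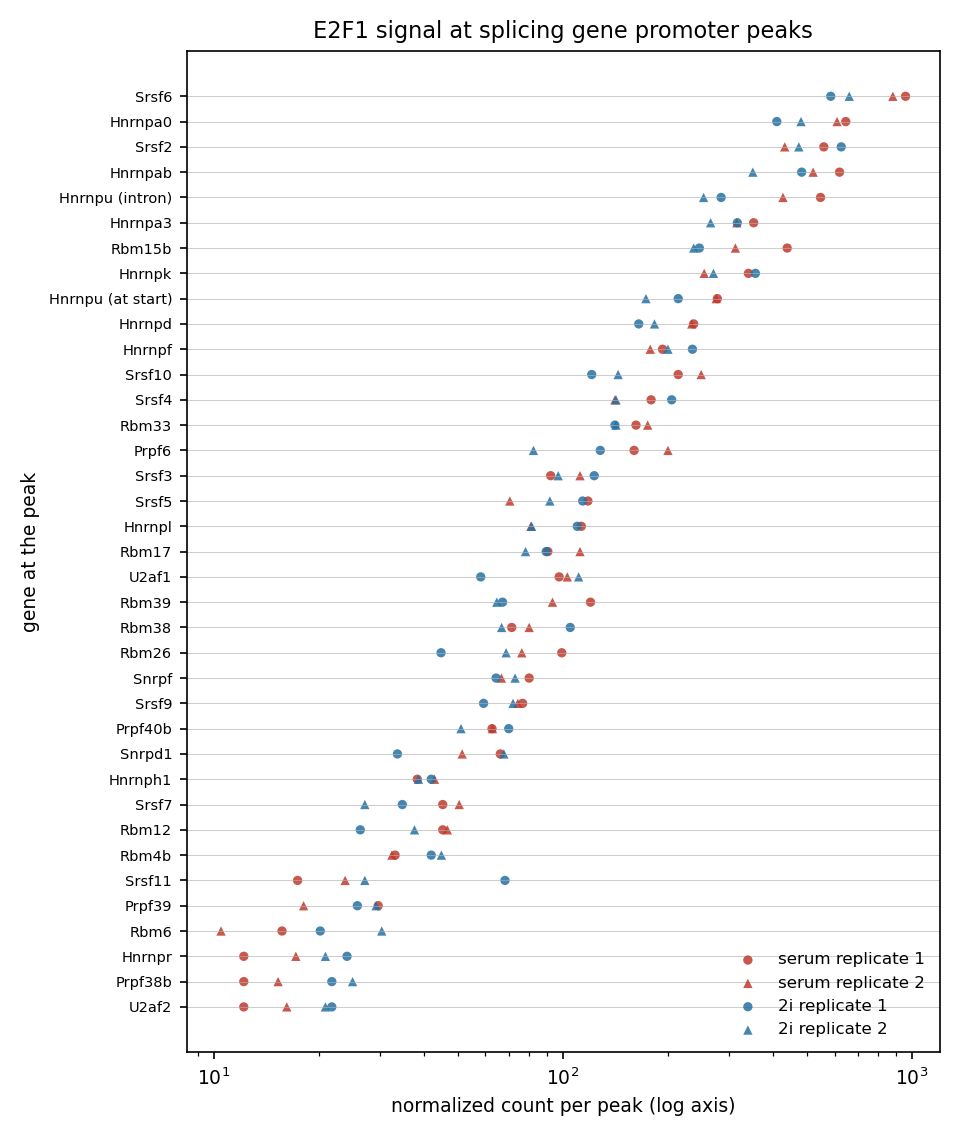
Normalized count (log axis) of each of the 37 promoter peaks in each of the 4 libraries, with serum in red, 2i in blue, circles for replicate 1 and triangles for replicate 2, ordered by mean. The strongest peaks, from Srsf6 downward, include several with both serum values to the right of both 2i values, while the weakest have serum values to the left.

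Between serum and 2i, no splicing gene peak passed the call, for which limma had to give a change of more than 1 on the log2 scale, up or down, and a p below 0.05 before adjustment. Of all peaks, 10.3% passed it, with serum higher at 4.82% and 2i higher at 5.48%, and 1.46% had an adjusted p under 0.05 (limma, Benjamini-Hochberg over all peaks), against 0 of the 37. An unadjusted p under 0.05 was reached by 5 of the 37 (13.5%), against 17.8% of all peaks, and all 5 were higher in serum. Counting tests on the recovered reads called 1 of the 37 with edgeR, Srsf11, against 11.1% of all peaks, and 0 with DESeq2, against 8.82% of all peaks. With 2 libraries per condition, an exact permutation test of a single peak cannot go below p = 0.333, and each p rests on the spread that limma shares over peaks.

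The direction leaned to serum, by little. The log2 fold change (serum minus 2i, on log2 of normalized count plus 1) had a median of 0.20 over the 37 peaks, with quartiles of -0.15 and 0.52 and a range from -1.05 to 0.85. The other promoter peaks had a median of -0.05. Of the 37, 23 were positive (62.2%), against 46.1% of the other promoter peaks. Both serum values lay above both 2i values at 16 peaks (43.2%), against 24.9% of all peaks, and both 2i values above both serum values at 7 (18.9%), against 24.4% of all peaks. The difference between the medians was 0.25, and it was 0.13 without serum replicate 1, after cyclic loess normalization, or without the Rbm genes. Taken by pairs of libraries, it was 0.23 and 0.30 for serum replicate 1 against 2i replicates 1 and 2, and 0.09 and 0.16 for serum replicate 2. Between replicates of the same condition it was 0.04 in serum and 0.10 in 2i, so the smallest difference between conditions did not exceed that between the 2i replicates.

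In the values as deposited, the direction went with the strength of the peak, and cyclic loess normalization, which fits such a trend between libraries, removed much of it at both ends of the range. When promoter peaks were divided into 4 equal classes by mean signal, the strongest class (means above 114) held 15 of the splicing gene peaks, with a median log2 fold change of 0.47 and 11 positive, against 0.10 and 59.8% positive for the other promoter peaks of that class. Both serum values exceeded both 2i values at 10 of these 15, against 34.4% of the other peaks. The weakest class (means below 38.2) held 7 splicing gene peaks, at Srsf11, Hnrnpr, U2af2, Prpf38b, Prpf39, Rbm4b and Rbm6. All 7 were negative, with a median of -0.60, against -0.29 and 32.2% positive for the other peaks, and at 6 of them both 2i values lay above both serum values, against 36.7% of the other peaks of that class. The classes between held 5 and 10 splicing gene peaks, with medians of 0.28 and 0.15, against -0.07 and -0.03. Each class held fewer than 20 splicing gene peaks. After cyclic loess normalization, an alternative chosen for these classes after the values were seen, the median was 0.12 in the strongest class, with 10 of 15 positive, and -0.22 in the weakest, with 1 of 7 positive. The other promoter peaks then had medians of -0.04 in both classes. The classes between barely moved, at 0.29 (5 of 5 positive) and 0.14 (6 of 10), against -0.07 and -0.05 for the other promoter peaks. The 7 peaks of the weakest class held 7 to 19 reads in serum replicate 1, the library with the fewest reads in peaks. They held 36 to 122 in 2i replicate 1. Serum replicate 2 had more reads in peaks than 2i replicate 2. There the 7 held 11 to 34 reads, and each held more, 20 to 43, in 2i replicate 2. A peak entered the list when found in both replicates of one condition. A weak peak may thus have entered only through the condition where it was higher. Neither the part of this filter nor that of depth in the direction of the weak peaks was tested.

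**Figure D3:**
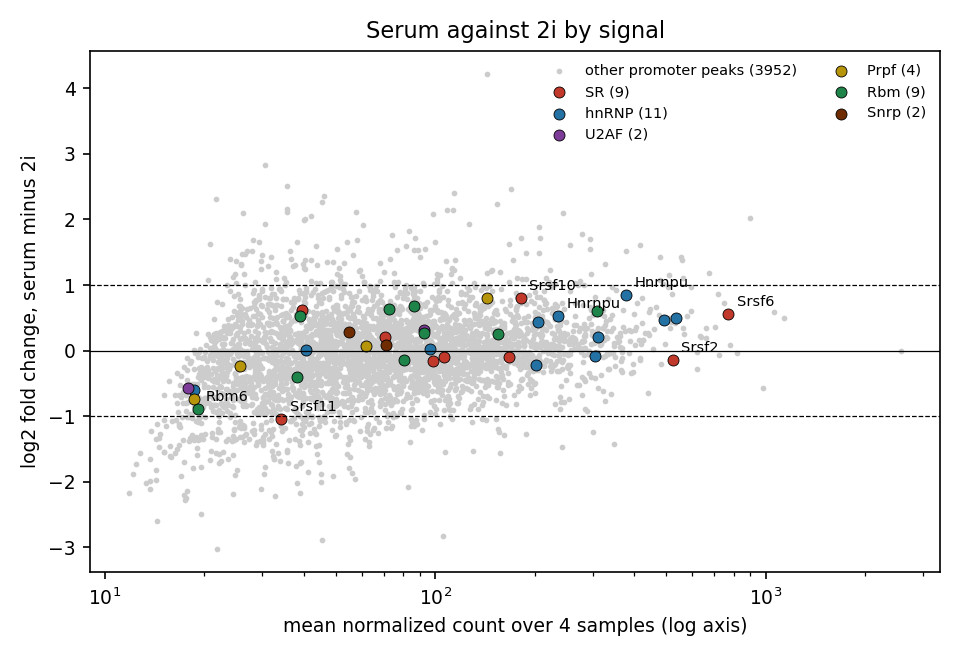
Log2 fold change (serum minus 2i) against the mean normalized count over 4 samples (log axis), with splicing gene peaks colored by group and the other 3952 promoter peaks in grey. The dashed lines mark the fold change asked of a call, and of the splicing gene peaks only Srsf11, at -1.05, lies beyond one, while the splicing gene peaks run from negative values at low signal to mostly positive values at high signal.

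SR gene peaks split by direction. Srsf6, which encodes an SR protein, had the strongest splicing gene peak (chr2:162756986-162757829, over the start), with normalized counts of 958 and 881 in serum and 585 and 661 in 2i. The serum values stood above the 2i values, with a mean of 920 ± 54.8 against 623 ± 54.0 (SD, n = 2 each) and a log2 fold change of 0.56 (SE 0.29, limma adjusted p = 0.342), which was 0.08 after cyclic loess normalization. Srsf10, a regulator that can repress splicing, held 214 and 249 in serum and 121 and 144 in 2i (chr4:135412042-135412627). The groups did not overlap, the log2 fold change was 0.80 (SE 0.25, limma adjusted p = 0.136), and leaving out a library gave 0.68 to 0.93. Srsf7 held 45.3 and 50.5 in serum and 34.7 and 27.1 in 2i, a log2 fold change of 0.62 (SE 0.38, limma adjusted p = 0.414).

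Srsf2 and Srsf3 had values that overlapped between the conditions. Srsf2, whose product binds exonic enhancers, held 559 and 432 in serum and 627 and 474 in 2i, and the ranges overlapped (log2 fold change -0.15, SE 0.29). Srsf3 held 92.3 and 112 in serum and 123 and 97.0 in 2i, again with overlap (log2 fold change -0.10, SE 0.27). In both genes the sign turned when a library was left out, so neither direction is firm, and after cyclic loess normalization the fold change at Srsf2 was -0.52. The lowest fold change of all 37 was at Srsf11 (chr3:157694472-157694873), with 17.4 and 23.8 in serum and 68.3 and 27.1 in 2i. This peak lay over the start at 157694690 and not at the start of most transcripts, 157699570. A single library, 2i replicate 1, stood far above the others, and the log2 fold change of -1.05 (SE 0.50, limma adjusted p = 0.298) was -0.39 without it and -1.70 without 2i replicate 2. The remaining SR peaks, at Srsf4, Srsf5 and Srsf9, had fold changes between -0.16 and 0.21.

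Of the 11 hnRNP peaks, 8 had a positive fold change (72.7%, against 46.1% of the other promoter peaks), at 5 both serum values exceeded both 2i values (45.5%, against 24.9% of all peaks), and none passed the call, against 10.3% of all peaks. Their signal ran from 18.6 at Hnrnpr to 537 at Hnrnpa0. Hnrnpu encodes a nuclear scaffold protein that binds RNA and chromatin. Its intronic peak (chr1:180266623-180267259) held 547 and 427 in serum and 284 and 253 in 2i. This was the highest fold change of the 37, at 0.85 (SE 0.26, limma adjusted p = 0.135), and leaving out a library gave 0.67 to 1.02. The peak over its start (chr1:180267721-180268189) held 277 and 275 in serum and 214 and 173 in 2i, with a log2 fold change of 0.52 (SE 0.25, limma adjusted p = 0.298). In both peaks the lowest serum value exceeded the highest 2i value, but the peaks lie within one gene and are not independent.

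Hnrnpa0, an hnRNP of the A/B family, held 646 and 610 in serum and 410 and 481 in 2i, without overlap (log2 fold change 0.50, SE 0.27, limma adjusted p = 0.360), and after cyclic loess normalization the fold change was 0.12. Hnrnpab, of the same family, held 620 and 521 in serum and 483 and 350 in 2i (0.47, SE 0.28). Hnrnpd likewise held 237 and 234 in serum and 165 and 183 in 2i (0.44, SE 0.24). All of these had both serum values above both 2i values. Hnrnpk, a protein that binds C-rich RNA and DNA, held 340 and 254 in serum and 356 and 270 in 2i, an overlap with a log2 fold change of -0.08 (SE 0.27). At Hnrnpk it was -0.31 after cyclic loess normalization and ran from -0.29 to 0.13 with a library left out. Hnrnpf was the only hnRNP peak of the strongest class with both 2i values above both serum values, at 193 and 178 in serum and 235 and 200 in 2i. The weakest hnRNP peak, at Hnrnpr, held 12.2 and 17.2 in serum and 24.1 and 20.9 in 2i, from as few as 7 reads, with a log2 fold change of -0.60 (SE 0.49, limma adjusted p = 0.575). It was -0.09 after cyclic loess normalization and -0.37 without serum replicate 1. At Hnrnpa3, Hnrnph1 and Hnrnpl the groups overlapped, with fold changes between 0.01 and 0.20. Hnrnpab, Hnrnpd and Hnrnpf were named after their values were seen.

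The peaks at Snrp and U2AF genes had mean normalized counts between 17.8 (U2af2) and 92.3 (U2af1). Snrpd1 and Snrpf, both encoding Sm ring proteins, had overlapping values. Snrpd1 held 66.2 and 51.5 in serum and 33.6 and 67.8 in 2i (log2 fold change 0.28, SE 0.39), and the fold change was -0.21 without 2i replicate 1 and 0.78 without 2i replicate 2. Snrpf held 80.1 and 66.7 in serum and 64.4 and 73.0 in 2i (0.09, SE 0.30, and -0.04 without serum replicate 1). The U2AF subunits pointed in opposite directions, without either passing a test. U2af1, which reads the last bases of the intron, held 97.6 and 103 in serum and 58.2 and 111 in 2i, so that the 2i replicates lay on both sides of serum. Its log2 fold change of 0.32 (SE 0.33) turned to -0.14 without 2i replicate 1. U2af2, which binds the polypyrimidine tract, held 12.2 and 16.2 in serum and 21.8 and 20.9 in 2i (-0.57, SE 0.50, limma adjusted p = 0.595), and its fold change was -0.03 after cyclic loess normalization.

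Prpf6 encodes a bridging protein of the tri-snRNP. The peak in its first kilobase held 160 and 200 in serum and 128 and 82.4 in 2i, without overlap, at a log2 fold change of 0.80 (SE 0.29, limma adjusted p = 0.184). Leaving out a library gave 0.49 to 1.11, with the lowest value without 2i replicate 2. Prpf38b lay the other way without overlap, with means of 13.7 ± 2.16 (SD, n = 2) for serum against 23.4 ± 2.26 (SD, n = 2) for 2i and a log2 fold change of -0.74 (SE 0.49, limma adjusted p = 0.462) that was -0.22 after cyclic loess normalization. At Prpf39 and Prpf40b, with fold changes of -0.23 and 0.07, the groups overlapped.

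Of the Rbm peaks, 6 of 9 had both serum values above both 2i values, against 24.9% of all peaks, and none of the 9 passed the call, against 10.3% of all peaks. Rbm15b, a protein of the RNA methylation writer complex, had the strongest (chr9:106788952-106789662, over the start), at 439 and 312 in serum and 246 and 237 in 2i. The 2i replicates lay close together and the serum replicates apart, and the log2 fold change of 0.61 (SE 0.26, limma adjusted p = 0.257) was 0.37 without serum replicate 1 and 0.38 after cyclic loess normalization. Rbm39, a coactivator and U2AF-related splicing factor, held 120 and 93.4 in serum and 67.2 and 64.7 in 2i (0.68, SE 0.28, limma adjusted p = 0.243). Rbm6 had both serum values below both 2i values, at 15.7 and 10.5 against 20.2 and 30.3 in 2i, from 9 to 36 reads (-0.89, SE 0.51, limma adjusted p = 0.383, and -0.38 after cyclic loess normalization). The same order held at Rbm4b (-0.40), while Rbm12, Rbm17, Rbm26 and Rbm33 had both serum values above both 2i values, with fold changes between 0.25 and 0.64. Rbm38 overlapped between conditions (-0.14).

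Other genes of the splicing machinery, outside the chosen symbols, were taken from a list chosen with earlier results known. Of 93 such genes, 33 (35.5%) had a promoter peak, with a median mean normalized count of 92.3 and a median log2 fold change of 0.16, 22 positive and 11 negative. Both serum values exceeded both 2i values at 10 of the 33 (30.3%, against 24.9% of all peaks), and the reverse held at 3 (9.09%, against 24.4%). The call was passed by 1 in each direction (6.06% in all, against 10.3% of all peaks). Khdrbs1, which encodes the splicing regulator Sam68, held 43.6 and 29.5 in serum and 14.0 and 12.5 in 2i, a log2 fold change of 1.37 (SE 0.47, limma adjusted p = 0.163). Ptbp3, a polypyrimidine tract binding protein listed as Rod1 in the annotation, held 85.4 and 62.0 in serum and 153 and 149 in 2i, a log2 fold change of -1.04 (SE 0.27, limma adjusted p = 0.0919). Neither passed adjustment over all peaks.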

How the data were processed

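Per the labels and the study's methods, the authors used BWA to align paired-end ChIP-seq reads (mm9), picard to discard duplicates, a blacklist of regions, MACS2 to call peaks per library and bedtools to count reads. Peaks had to be found in both replicates of one condition, and those of both conditions were merged. The authors deposited a signal per peak and library, the normalized count, for all 4 libraries. Of the 18092 values, 99.95% were whole multiples of 1 read (tolerance 0.05 reads), and at least 99.85% in each library. The value of 1 read was taken as the largest step that fits a library. The smallest value was 1 read in serum replicate 1 but 2, 5 and 2 reads in serum replicate 2, 2i replicate 1 and 2i replicate 2, so there the step is inferred and not seen as a value, and the reads, depths and count tests rest on it. The remaining 9 were serum values deposited as exactly 2, taken as 0 reads in count tests. Whether the deposited starts count from 0 or 1 is not stated.

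From these values, limma 3.58.1 (R 4.3.3) was fitted to log2(normalized count + 1) with a variance trend over all 4523 peaks, with no filter. A call asked for a log2 fold change past 1 and an unadjusted p under 0.05, as in the study's methods, which used DESeq2 on counts. Adjustment was by Benjamini-Hochberg. Alternatives were pseudocounts of 0.1 and 8, a minimum mean of 50, other scalings, a replicate block, no trend, edgeR 4.0.16 and DESeq2 1.42.0 on recovered reads, each library left out and other promoter definitions. Biological replicates are stated without saying how cultures were separated, so p-values measure the spread between these libraries. Intervals (Clopper-Pearson) cover counting error only, and the floor of 3 reads is a normalized count of 5.23, 2.86, 1.68 and 3.13 in serum 1, serum 2, 2i 1 and 2i 2.

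Peaks were placed on NCBIM37 with GENCODE M1 in Python 3.11.15 (pysam 0.24.0), leaving out 14 peaks on random contigs. The fitting code was run on simulated data as a check, with the outcome not reported here. The gene symbols, role groups, list of 93 further splicing genes and named genes were chosen with earlier results of these data known. Named were, in each group, the peaks with the highest mean and the highest and lowest fold change, all called peaks, and a list of well-known splicing genes. The CpG-rich background and the 100-base sequences were added after seeing the data. RNA-seq was not analysed here.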

Additional observations from a re-analysis of the deposited data

How the results depend on the processing

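The count of 0 called splicing gene peaks became 1 after rescaling to the same total, after centring by chromosome, with the replicate block and with edgeR, in each case Srsf11, higher in 2i, where 491, 439, 504 and 500 of all 4523 peaks were called. It was 1 with any library left out, where 378 to 674 of all peaks were called, at most 1 in either direction (0 to 1 higher in serum, 0 to 1 higher in 2i). Such a fit leaves 1 library in an arm, which is assumed to vary like the pair of the other condition. The calls were Rbm6 without serum replicate 1, Hnrnpu without serum replicate 2, Prpf6 without 2i replicate 1 and Srsf11 without 2i replicate 2. With the replicate block, adjusted calls over all peaks rose from 66 to 311, and 1 splicing gene peak, Hnrnpu, had an adjusted p of 0.0342 (limma). Same-numbered libraries did not deviate together (r = 0.0483 over 4523 peaks). The labels do not say whether they were prepared together, which this correlation cannot tell, so the block stayed an alternative.

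The splicing gene median of 0.20 was 0.11 after rescaling to the same total, 0.08 after cyclic loess, 0.08 without the Rbm genes and 0.11 to 0.22 with a library left out. The median of the other promoter peaks (-0.05) was 0.03 with a minimum mean of 50, -0.14 after rescaling to the same total and -0.05 to -0.03 with a library left out. Their difference, 0.25, was 0.13 after cyclic loess and without the Rbm genes, and 0.13 to 0.25 with a library left out. Per kb, the median signals of 92.7 and 65.0 became 176 and 128. The 7-letter E2F motif raised the share from 5.41% to 27.0%.

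Of the 20 named peaks, 14 kept their sign under every setting run. The sign turned, beyond chromosome centring at Srsf2 (0.09), only when a library was left out, and the values then ran from -0.29 to 0.13 at Hnrnpk (0.13 without serum replicate 2, 0.12 without 2i replicate 1), from -0.21 (without 2i replicate 1) to 0.78 at Snrpd1, from -0.04 (without serum replicate 1) to 0.22 at Snrpf, from -0.35 to 0.05 at Srsf2 (0.04 without serum replicate 2, 0.05 without 2i replicate 1), from -0.26 to 0.07 at Srsf3 (0.04 without serum replicate 1, 0.07 without 2i replicate 1) and from -0.14 (without 2i replicate 1) to 0.77 at U2af1. The cause of these shifts was not tested. The number of genes with a peak, 36, was 35 to 36 under other windows and transcripts, 29 without shared windows and 27 without the Rbm genes. The weakest peaks rested on few reads, with 7 at the lowest.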
